A study of Mus musculus with 12 samples.

Results

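The genes described here encode subunits of the receptors for GABA, glutamate, acetylcholine and serotonin, measured in the mouse pituitary gland. Members were all non-control probes whose gene name begins with Gabr, Gria, Grik, Grin, Grm, Chrn, Chrm or Htr followed by a subunit letter or number. This gave 113 probes for 78 gene names, of 30175 gene names on the array, and left out Grina and the proteases Htra1, Htra2, Htra3 and Htra4, whose names only resemble those of receptors. All 78 names were present in the reference gene table, and 101 of the 113 probes also matched it by accession under the same symbol.

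Pituitary RNA came from 12 adult female C57BL/6J mice, an inbred strain, at 2 months of age. The control group ate a normal diet, the early life group lacked vitamin D in the diet early in life, and the peripubertal group lacked it around puberty, with 4 mice described as biological replicates in each. The minced gland was extracted whole, so all its cell types and both lobes contribute, and fewer cells of a type and less RNA per cell cannot be told apart. Levels are single-channel log2 intensities, in which a difference of 1 is a doubling of brightness, and levels of different probes are not compared, because each probe binds with its own strength.

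Each of the 6 arrays carried 2 mice of 1 group in different dyes. Both control arrays lay on 1 slide and the 4 arrays of the deficient groups on another, and therefore slide effects and diet effects cannot be told apart wherever control mice are involved. The deposited files conflict over the deficient groups: each of the 8 columns of these groups in the authors' value table equals, within 1e-06 at 99% of spots, a scanner channel whose file is labelled with the opposite deficient group. Group names follow the scanner files here, and under the value table's assignment every early life value below would be a peripubertal value and the reverse. For its 4 control columns no channel with equal values was found. Outlier marks by the scanner software removed 6.54% to 7.34% of spots on early life arrays, 3.85% to 5.08% on peripubertal arrays and 1.68% to 1.90% on control arrays, and a marked spot is lost for both mice of an array. All 7 hormone genes checked (Cga, Fshb, Gh, Lhb, Pomc, Prl and Tshb) were well above background in at least 4 channels.

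GABA-A receptors are chloride channels built of 5 subunits, usually alpha, beta and gamma, and are the main fast inhibitory receptors of the nervous system. AMPA, kainate and NMDA receptors are glutamate-gated cation channels, nicotinic receptors are acetylcholine-gated cation channels, and the metabotropic glutamate, muscarinic and all but the type 3 serotonin receptors act through G proteins. Hormone-secreting cells of the pituitary are electrically excitable, and GABA, acetylcholine, glutamate and serotonin are known to alter their secretion. The posterior lobe holds the endings of hypothalamic neurons, and GABA and dopamine fibres reach the intermediate lobe.

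A probe was kept where the scanner software marked it well above background in 4 or more of the 12 channels. By this rule 60 of the 113 probes, standing for 48 of the 78 genes, were kept, whereas 62.2% of all probes on the array were. At the extremes, 24 probes of 22 genes were above background in all 12 channels and 33 probes in none. AMPA receptor subunits were kept most completely under this rule, with all 4 genes (Gria1, Gria2, Gria3, Gria4) kept through 6 of 7 probes. Only 1 of these probes was above background in all 12 channels. GABA-A and related rho subunits were kept for 14 of 19 genes, with Gabra5, Gabra6, Gabrp, Gabrq and Gabrr3 not kept. Nicotinic subunits were kept for 11 of 16 genes, with Chrna3, Chrna5, Chrna10, Chrnd and Chrne not kept, kainate subunits for 4 of 5, with Grik2 not kept, and NMDA subunits for 4 of 7, with Grin2c, Grin2d and Grin3b not kept. Of the G protein coupled families, metabotropic glutamate receptors were kept for 3 of 8 genes (Grm2, Grm5 and Grm8) and muscarinic receptors for 2 of 5 (Chrm1 and Chrm4), and serotonin receptors were kept for 6 of 14 (Htr1d, Htr2b, Htr2c, Htr3a, Htr6 and Htr7). Htr3a, the ion channel subunit among the serotonin receptors, was the only one of these above background in all 12 channels.

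**Figure D1:**
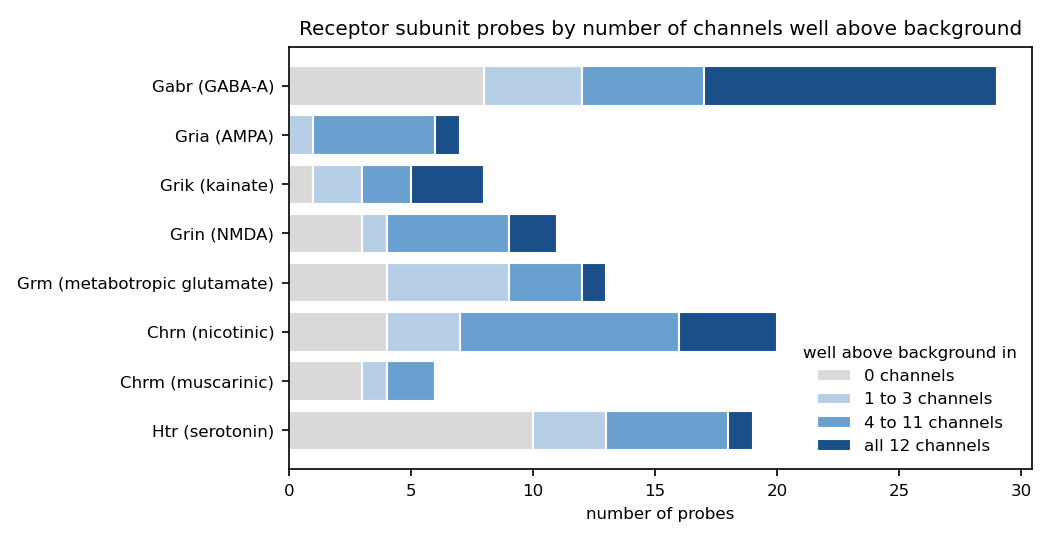
Horizontal bars give the number of probes of each receptor family (x axis), split by the number of the 12 channels in which the probe was well above background. The GABA-A family holds 12 of the 24 probes detected in all 12 channels, and the serotonin family holds 10 of the 33 detected in none.

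At the limit of the rule, probes of Chrm1, Htr1d and Htr7 were kept with exactly 4 channels. Probes of Chrnd, Gabre (a second probe), Grik2, Grin2d, Grm4 and Grm7 were left out with exactly 3. The 3 channels of Chrnd were all early life, and those of the second Gabre probe and of Grin2d were all control. The number of receptor probes above background ran from 52 to 71 in control mice, from 34 to 53 in early life mice and from 44 to 66 in peripubertal mice. The lowest level that the software called above background was mostly higher in early life channels (7.10 to 7.76) than in control (5.88 to 7.03) or peripubertal channels (5.69 to 7.13). These are the lowest marked readings of single probes, and a probe above them was not always marked. They are therefore not the level that every probe needed.

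Differences between groups were tested over all kept probes with limma, which shares information on the spread across probes, with Benjamini-Hochberg adjustment of p-values across all kept probes in a comparison. For early life against control, 0 of 59 receptor probes passed an adjusted p of 0.05, while 22 of 23743 probes on the array did (0.0927%). At an unadjusted p of 0.05, 12 receptor probes passed (8 higher, 4 lower), or 20.3%, beside 17.2% of all probes. Early life and control values did not overlap in 8 of the 59, or 13.6%, beside 14.8% of all probes. For peripubertal against control, 0 of 60 passed with adjustment (0.0207% of all probes), 3 passed without it, or 5%, beside 4.98% of all probes, and 4 did not overlap, or 6.67%, beside 9.06%. For early life against peripubertal, 1 of 59 passed with adjustment, beside 0.386% of all probes. There, 18 of 59 passed at an unadjusted p of 0.05 (15 with the higher level in early life mice, 3 with the lower), or 30.5%, beside 20.2% of all probes, and 18 without overlap, beside 21.6%. Shares in both comparisons with control lay near those of the array as a whole. Without the array of early life mice 3 and 4, 3253 of 21852 probes on the array passed for early life against peripubertal, and 9 of 58 receptor probes did (Chrnb3, Gabrg3, Gabrr1, Gabrr2, Gabra4, Grik3, Grik4 and Chrna1 higher, Gria1 lower). For early life against control the same omission gave 2737 of 21991 probes and 6 of 58 receptor probes (Chrnb3, Gabrg3, Gabra4, Grik3, Grik4 and Chrna1, all higher). The receptor shares there were close to those of the array, and nothing particular to receptors is read from them.

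The median receptor probe lay 0.20 (log2) higher in early life than in peripubertal mice, with 39 of 59 probes higher, beside a median of 0.02 and 52.3% higher over all probes. Against control, the median was 0.13 in early life mice (36 of 59 higher) and -0.05 in peripubertal mice (23 of 60 higher), beside 0.01 and 0.00 over all probes. These 3 comparisons share their groups, so their medians are not independent of each other. Among the 24 receptor probes above background in all 12 channels, 21 were higher in early life than in peripubertal mice, with a median of 0.31, beside 54% and 0.03 for the 13090 probes of the array detected as widely. With channels centred on their 75th percentile the receptor median for early life against control turned to -0.11, while that over all probes moved to -0.07.

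**Figure D2:**
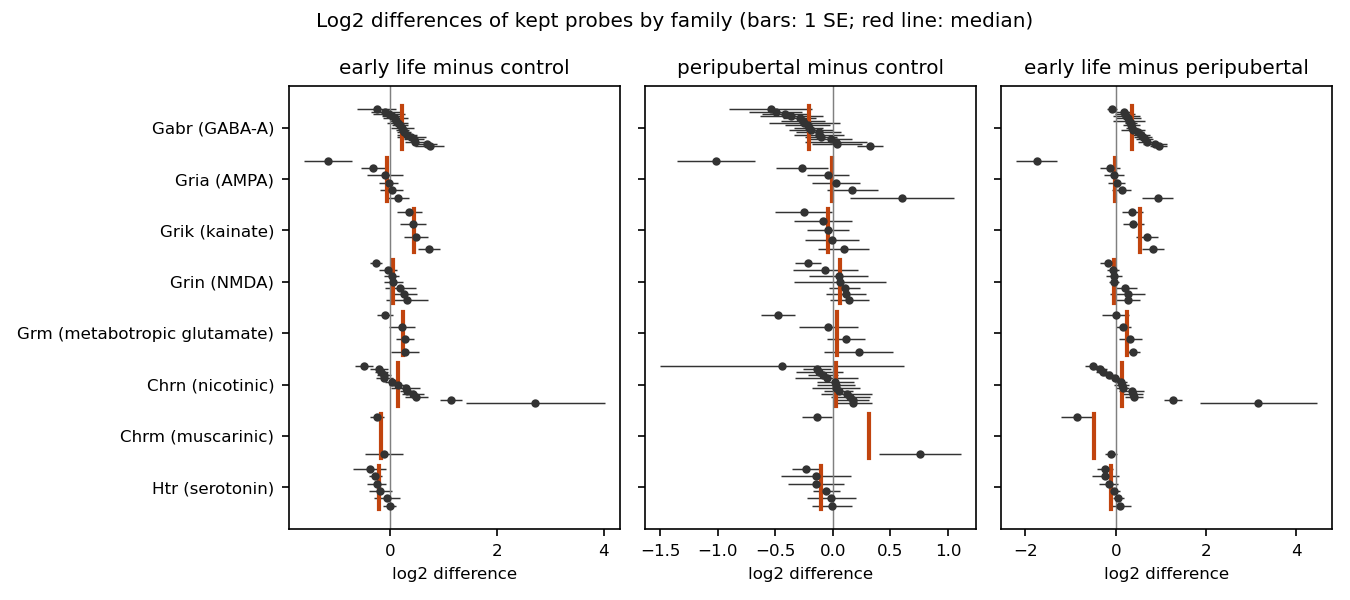
Each point is a kept probe's log2 difference between 2 diet groups (x axis) with a bar of 1 SE, arranged by receptor family, and a red line marks the family's median. GABA-A probes lie right of 0 in early life against peripubertal mice in 16 of 17 cases, and the points farthest from 0 are Chrna6, Gria1 and Chrnb3; the x axes differ in range.

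GABA-A subunits, the family with the most kept probes, lay mostly on 1 side. In early life mice 16 of 17 probes were higher than in peripubertal mice, with a median log2 difference of 0.37, beside 52.3% higher and a median of 0.02 over all probes. An unadjusted p under 0.05 was found for 9 of the 17, beside 20.2% of all probes, and 0 passed with adjustment. The only probe on the other side was that of the beta subunit Gabrb1, at -0.08. Against control, 14 of 17 were higher in early life mice (median 0.24) and 14 of 17 were lower in peripubertal mice (median -0.21). Under other scalings, background corrections and filters the median ran from 0.24 to 0.53, with 24 of 29 probes higher when no probe was filtered out and 11 of 12 when only probes above background in all 12 channels were used. With a mouse or an array left out, 14 to 16 probes were higher, with a median of 0.34 to 0.47. Over the 15 probes with a value in every mouse, the mean deviation from the probe's own mean was 0.35, 0.17, 0.13 and 0.17 in the 4 early life mice. It was -0.12, -0.01, 0.11 and -0.04 in control mice and -0.14, -0.11, -0.22 and -0.29 in peripubertal mice. Every early life mouse thus lay above every other mouse, while peripubertal and control mice overlapped.

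Gamma subunits such as Gabrg3 bring the benzodiazepine site to the receptor together with an alpha subunit such as Gabra2. For Gabrg3, probe A_55_P2228097 read 8.55, 7.89, 7.92 and 7.92 in early life mice, 7.20, 7.13, 7.88 and 7.28 in control mice and 7.14, 7.01, 7.24 and 7.07 in peripubertal mice. Early life mice lay above all others, by a narrow margin over control mouse 3. The difference was 0.96 (SE 0.19, 1.94-fold, adjusted p = 0.061) against peripubertal and 0.69 (SE 0.19, adjusted p = 0.15) against control. The difference from peripubertal mice passed the test in 4 other fits and did not pass in 29, with an adjusted p of at most 0.582. It passed in the authors' value table with columns grouped as in the scanner files (adjusted p = 0.0191). Under that table's own labels its direction would be reversed. The difference also passed without control mouse 3 (0.0347), without early life mouse 3 (0.0225) and without the array of early life mice 3 and 4 (0.012). A second Gabrg3 probe, A_55_P2053251, differed in the same direction by 0.34 (SE 0.12, adjusted p = 0.17) against peripubertal. Dim spots around these 2 probes read 0.25 and 0.47 higher on the array of early life mice 3 and 4 than on other arrays.

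Gabra2 is read by 2 probes on the minus strand of chromosome 5, A_55_P2177351 at chr5:71352306-71352365 and A_55_P2027900 at chr5:71352275-71352334 (build mm9, per the file headers). They are shown because 29 of their 60 bases are the same, in capitals here, so they are close to a repeat measurement of 1 stretch of transcript and not 2 separate readings. The end of the first and the start of the second read, 5′ to 3′:
A_55_P2177351, last 30 bases: tTCAGCTCACTTCAATCATTGGAAACTACC
A_55_P2027900, first 30 bases: TCAGCTCACTTCAATCATTGGAAACTACCt
The first probe read 10.07, 10.61, 10.43 and 10.48 in early life mice, 9.56, 10.24, 9.999 and 9.90 in control mice and 9.72, 9.85, 9.76 and 9.49 in peripubertal mice. Early life mice lay above all peripubertal mice by 0.69 (SE 0.19, adjusted p = 0.11) and overlapped control. The second probe gave 0.57 (SE 0.20, adjusted p = 0.16) for the same comparison and -0.42 (SE 0.20, adjusted p = 0.999) for peripubertal against control.

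The rho subunit Gabrr2 differed by 0.48 (SE 0.15, adjusted p = 0.13) between the deficient groups, with all 4 peripubertal mice (10.04 to 10.21) below all control mice (10.22 to 10.56) as well. Gabrb1 was the member with the largest positive GABA-A difference for peripubertal against control, at 0.32 (SE 0.12, adjusted p = 0.87). Gabre varied by array more than by diet: both mice of the first control array read 10.71 and 10.57, and both mice of the second read 9.54 and 9.26.

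**Figure D3:**
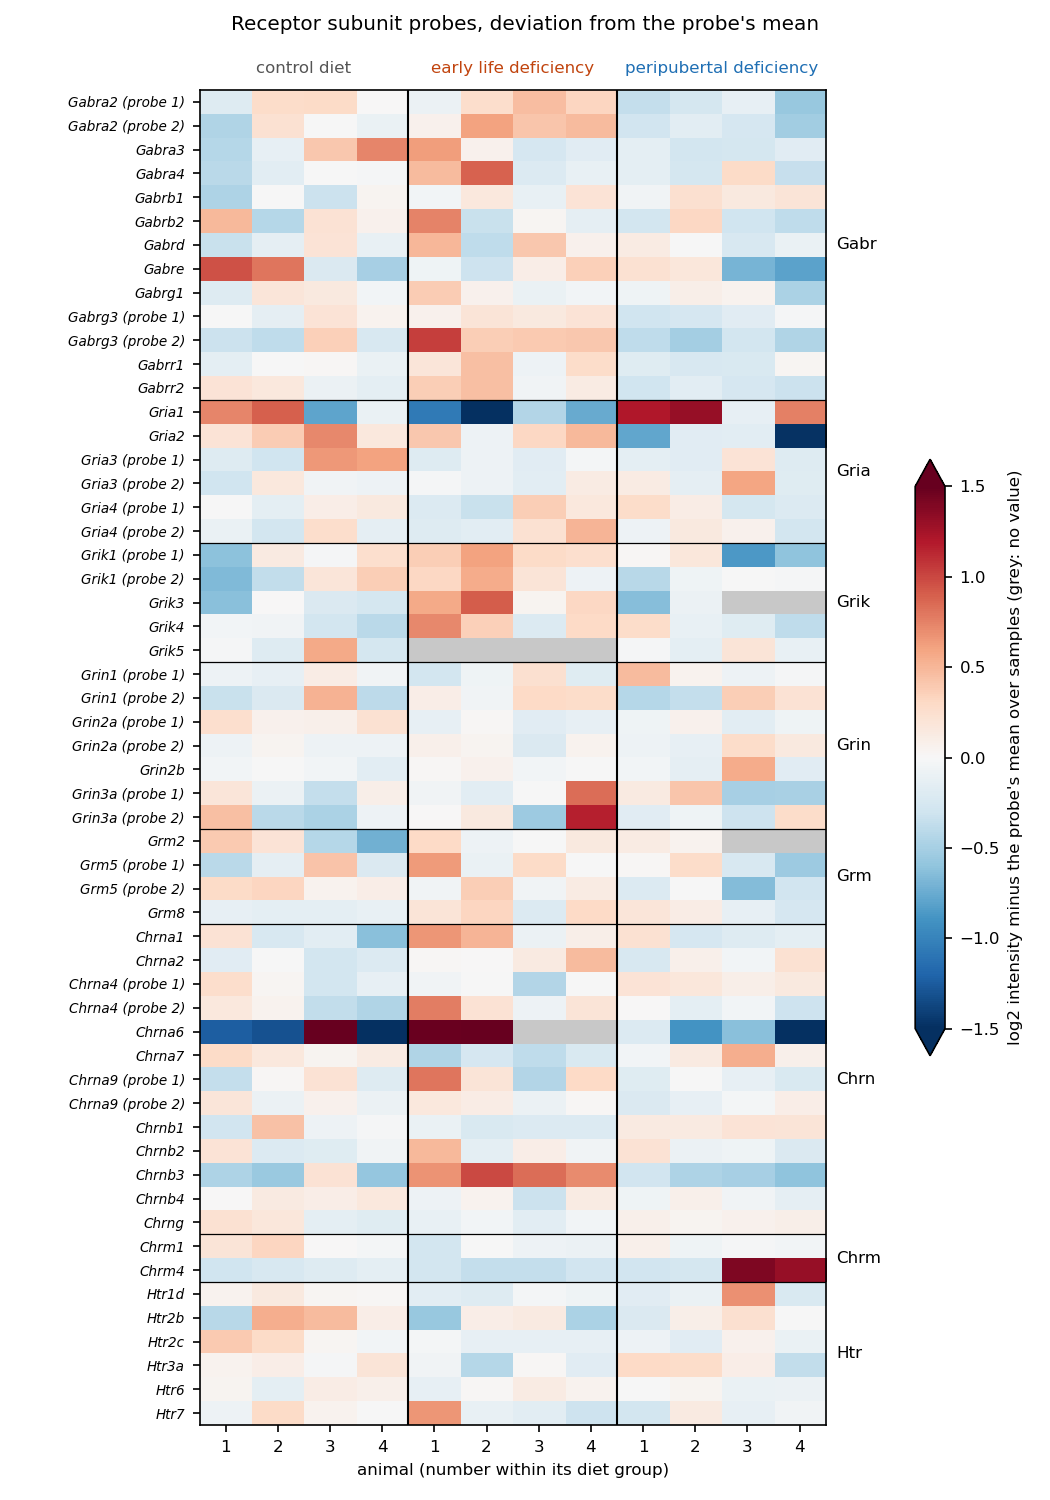
Colours give the log2 intensity of kept receptor probes (rows, by family; a few GABA-A rows are not shown) in each mouse (columns, by diet group) minus the probe's mean over mice, with grey for spots lost to outlier marks. Early life columns are mostly red in the GABA-A block, Gria1 is blue in all 4 early life mice, and Chrm4 is red in 2 peripubertal mice that shared an array.

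GABA-A genes lie in clusters. By probe position (mm9), Gabrg1, Gabra2, Gabra4 and Gabrb1 lay within 1385 kb of chromosome 5, and Gabre, Gabra3 and Gabrq within 581 kb of the X chromosome. On chromosome 5, Gabra2 differed by 0.69 and Gabrb1 by -0.08 between the deficient groups. Gabra4 (1.30-fold) and Gabrg1 (1.13-fold) were higher in early life mice, as Gabra2 was. On the X chromosome Gabra3 differed by 0.28 and Gabre by 0.29, and Gabrq was not kept.

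Among AMPA receptor subunits, Gria1 and Gria2 stood apart, in opposite directions. Gria1, a subunit of calcium-permeable AMPA channels when Gria2 is missing, read 7.43, 6.87, 8.05 and 7.73 in early life mice, 9.22, 9.38, 7.70 and 8.39 in control mice and 9.69, 9.79, 8.36 and 9.25 in peripubertal mice. Early life mice lay below all peripubertal mice, and control mice spanned both. Only 2 of the 4 early life mice were well above background, and mice 1 and 2 lay below the lowest level so marked in their channels (7.45 and 7.10), so the size of the difference is uncertain. As measured it was -1.75 (SE 0.45, adjusted p = 0.10) and did not pass the test. Its adjusted p was 0.0404 without early life mouse 3 and 0.0307 without the array of early life mice 3 and 4, which left no early life mouse above background. Gria2, the subunit that makes AMPA channels impermeable to calcium, read 6.58, 7.18, 7.19 and 5.88 in peripubertal mice, below every control mouse (7.52 to 8.08) and every early life mouse (7.28 to 7.85). Its difference of -1.01 (SE 0.34) for peripubertal against control had an adjusted p of 0.83, and only 2 of the 4 peripubertal values were above background. Gria3 and Gria4 probes differed by at most 0.31 in either direction in any comparison.

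All 4 kainate receptor probes with a value in both deficient groups were higher in early life than in peripubertal mice (median 0.54) and than in control mice (median 0.46). Over all probes, 52.3% and 51.2% were higher in these comparisons. The 4 were the 2 probes of Grik1 and those of Grik3 and Grik4. For Grik3 the values were 11.17, 11.51, 10.64 and 10.92 in early life mice and 9.98, 10.60, 10.38 and 10.34 in control mice. Peripubertal mice 1 and 2 read 9.97 and 10.51, and the other two lost their spot to outlier marks. Early life mice lay above all others, although the lowest exceeded the highest control mouse by little. The difference from control was 0.74 (SE 0.20, adjusted p = 0.16) and passed only without the array of early life mice 3 and 4 (adjusted p = 0.0172). Grik1, a subunit that forms kainate channels by itself, differed by 0.69 (SE 0.24, adjusted p = 0.17) and 0.37 between the deficient groups on its 2 probes. Grik5, a subunit that needs a partner to form a channel, averaged 11.27 ± 0.38 in control and 11.23 ± 0.15 in peripubertal mice and had no early life value.

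NMDA and metabotropic glutamate receptors showed small differences. Grin1, the obligatory NMDA subunit, averaged 11.05 ± 0.43 in control, 11.31 ± 0.16 in early life and 11.10 ± 0.40 in peripubertal mice on its brighter probe, and a second probe was above background in 5 channels and in 0 of 4 early life channels. Between the deficient groups the 7 NMDA probes had a median difference of -0.04, with 3 higher in early life mice and 4 lower. A Grin2a probe was above background in all 4 control mice, 1 peripubertal mouse and 0 early life mice, and its early life bound (7.39) exceeds the control mean (7.31), so no difference is given. Grm5, a receptor coupled to phospholipase C, differed by -0.48 (SE 0.15, adjusted p = 0.72) for peripubertal against control on probe A_55_P2316783. The values there were 7.68, 7.87, 7.24 and 7.60 in peripubertal mice and 8.17, 8.21, 7.94 and 7.98 in control mice, without overlap. Its other probe gave -0.04 for the same comparison. Grm2, which lowers cyclic AMP, lost 2 peripubertal mice to outlier marks and differed by 0.22 from control in both deficient groups.

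The nicotinic subunit Chrnb3 was the only receptor gene past the test. Its protein joins other nicotinic subunits, among them that of Chrna6, in receptors known from dopamine neurons. Its probe is on the plus strand at chr8:28507869-28507928 and that of Chrna6 on the minus strand at chr8:28513686-28513745 (mm9), 5.757 kb apart, and no protein-coding gene lies between both genes in the reference table (assembly GRCm38.p6). Whether the probes lie in coding exons or UTRs was not analysed here. The first 30 bases of both are shown because these genes are neighbours with similar patterns, and the longest run of bases their probes share on either strand is 5, all in lower case since no part is singled out:
Chrnb3 probe A_52_P358651: aacttttctaatacaggtaggaactacacc
Chrna6 probe A_55_P2041065: tcccacgagcccttctctagctcactgcat

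Chrnb3 read 8.60, 8.92, 8.77 and 8.64 in early life mice. It read 7.46, 7.37, 8.14 and 7.35 in control mice and 7.64, 7.46, 7.42 and 7.32 in peripubertal mice. All 4 early life mice lay above all 8 others, and control mouse 3 lay above the rest of its group. Chrnb3 was higher in early life than in peripubertal mice by 1.27 (log2, SE 0.20, 95% interval 0.82 to 1.71), or 2.41-fold, with an adjusted p of 0.037 in limma. Against control the difference was 1.15 (SE 0.20, 2.22-fold, adjusted p = 0.058), and peripubertal and control mice differed by -0.12 (SE 0.20, adjusted p = 0.999). The call is close to the threshold. In 13 of 33 other fits the adjusted p for early life against peripubertal stayed under 0.05, and in 20 it rose above, to at most 0.426, while the difference stayed between 1.15 and 2.12. Among the left-out mice, each control mouse other than mouse 3, early life mice 2 and 4 and each peripubertal mouse took the adjusted p above 0.05 (at most 0.104). Leaving out control mouse 3 brought it to 0.00523, and brought early life against control to 0.00756. Under the value table's naming of the groups the same difference would be a higher level in peripubertal mice.

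Chrna6 had the same mice at its high end. It read 10.88 and 12.62 in early life mice 1 and 2, with no value in the other two, and 8.17, 8.10, 12.03 and 7.83 in control mice. Peripubertal mice read 9.19, 8.51, 8.77 and 7.89. Control mouse 3 was thus within the early life range, as it was the highest control for Chrnb3. The difference was 3.16 (SE 1.30, adjusted p = 0.22) against peripubertal and 2.72 (SE 1.30, adjusted p = 0.32) against control, and without control mouse 3 the latter was 3.75 (adjusted p = 0.048).

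**Figure D4:**
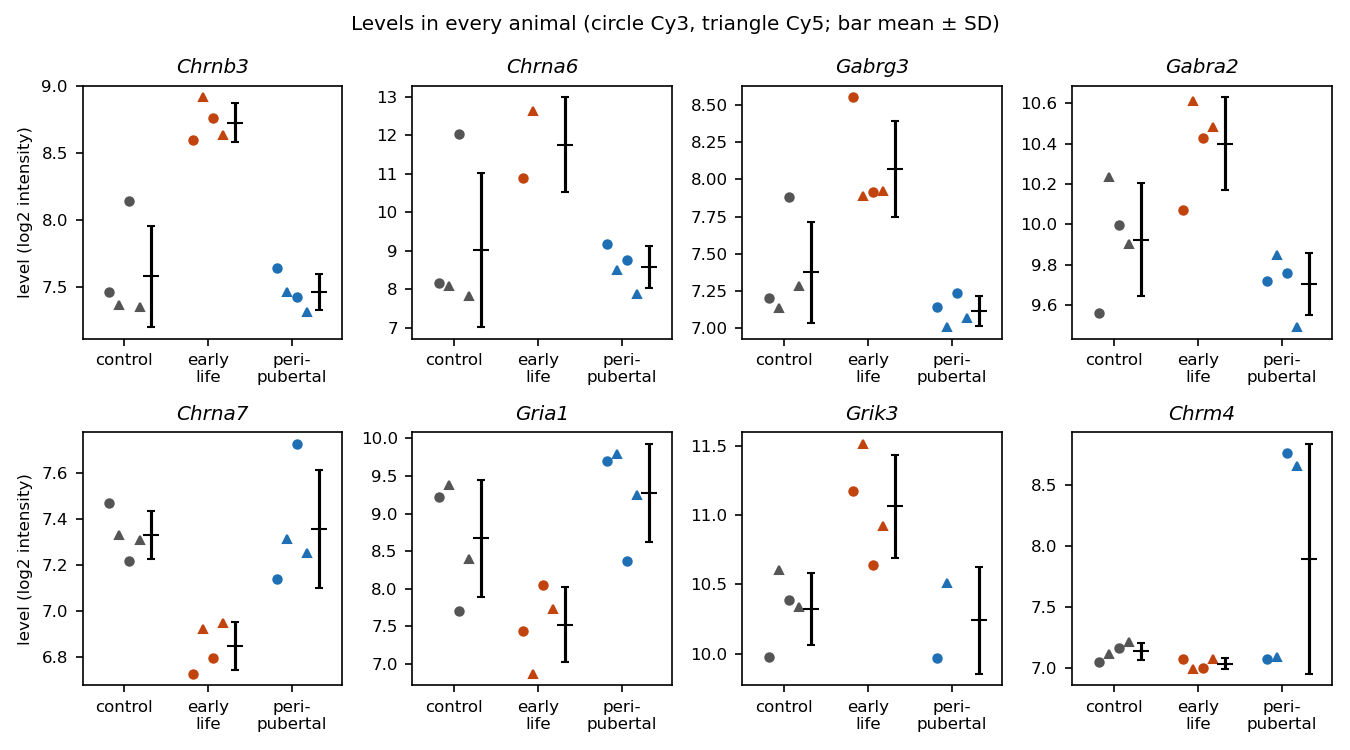
Log2 intensity (y axis) of 8 receptor probes in every mouse by diet group, with circles for Cy3, triangles for Cy5 and a bar for mean ± SD. Early life mice lie above all others for Chrnb3, Gabrg3 and Grik3, Chrna7 was not well above background in any early life mouse, control mouse 3 is high for Chrnb3 and Chrna6, and the high Chrm4 values belong to 2 mice of 1 array.

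No other nicotinic subunit passed the test. Chrnb2, the commonest beta subunit in brain, averaged 10.28 ± 0.18 in control, 10.43 ± 0.28 in early life and 10.30 ± 0.18 in peripubertal mice. Chrna7, which forms channels by itself, was above background in 4 of 4 control, 3 of 4 peripubertal and 0 of 4 early life mice. Its levels were 6.73, 6.92, 6.79 and 6.95 in early life mice, 7.47, 7.33, 7.22 and 7.31 in control mice and 7.14, 7.31, 7.73 and 7.25 in peripubertal mice. Since the early life level is only a bound, and that bound (7.37) exceeds the control mean (7.33), no fold or difference is given. The subunits Chrna1, Chrnb1 and Chrng, known from the receptor of muscle, differed by 0.38, -0.36 and -0.16 between the deficient groups (adjusted p = 0.34, 0.27 and 0.49), and Chrna1 by 0.50 for early life against control (SE 0.22, adjusted p = 0.28). Of 6 skeletal muscle markers, Ckm, Mylpf, Tnnt3 and Myh1 were not above background in 4 channels. Myh4 was above background in all 12 channels and Acta1 in 11.

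Of the muscarinic receptors, Chrm4, which lowers cyclic AMP, read 8.76 and 8.66 in peripubertal mice 3 and 4. All other mice read between 7.0 and 7.22, including peripubertal mice 1 and 2 at 7.07 and 7.10. The difference of 0.76 (SE 0.35, adjusted p = 0.999) from control thus rested on 2 mice that shared an array: it was 1.57 (adjusted p = 0.000614) without the other peripubertal array and -0.06 without theirs. In early life mice the probe was nowhere above background, and the peripubertal mean lay 1.44-fold above the early life bound (7.37). Peripubertal mice 1 and 2 lay below that bound, and the measured difference did not pass the test (adjusted p = 0.21). Chrm1 was above background in 3 control, 1 peripubertal and 0 early life mice, and its early life bound (7.38) exceeds the control mean (7.29), so no difference is given.

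Serotonin receptors were low, with 5 of the 6 kept probes above background in 4 to 7 channels. The measured difference from control was below 0 for all 6 in both deficient groups, with medians of -0.21 in early life and -0.10 in peripubertal mice, and 0 passed the test. Over all probes, 51.2% were higher than control in early life and 50.3% in peripubertal mice. Both comparisons use the same control mice and are not independent. For Htr6 in early life mice the measured difference was only -0.0008, and Htr1d and Htr2c were above background in 0 early life mice. With a mouse or array left out, up to 1 of the 6 in early life and up to 3 in peripubertal mice lay above control. Under the other settings the early life median ran from -0.62 to 0.01 and the peripubertal median from -0.39 to -0.01. Htr3a averaged between 7.71 and 7.95 in the groups, and Htr2b, a receptor coupled to phospholipase C, differed by -0.38 (SE 0.30, adjusted p = 0.54) for early life against control. Htr2c, a receptor of the same kind, was above background in 3 control, 2 peripubertal and 0 early life mice. Its control mean lay 1.03-fold above the early life bound (7.37), and the measured difference did not pass the test (adjusted p = 0.29).

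A list of 81 partner genes covered enzymes, transporters, receptor-associated and scaffold proteins of the same transmitters; 80 were on the array and 67 were kept through 98 probes. None passed the test in limma in any comparison, while 19, 6 and 25 of the 98 had an unadjusted p under 0.05 for early life against control, peripubertal against control and early life against peripubertal, beside 17.2%, 4.98% and 20.2% of all probes. In the same order the median log2 differences were 0.10, 0.01 and 0.14. Partners of GABA signalling were higher in early life than in peripubertal mice in 19 of 26 probes (median 0.17), beside 52.3% of all probes. Glutamate partners were higher in 31 of 50 (median 0.14) and acetylcholine partners in 10 of 15 (median 0.11). Serotonin partners went the other way, with 2 of 7 higher (median -0.56) and 5 at an unadjusted p under 0.05 in limma. The smallest p-value among all partners in that comparison belonged to Slc6a11, a GABA transporter. It read 8.88, 8.51, 8.62 and 8.65 in early life mice, 8.07, 7.98, 8.72 and 7.97 in control mice and 7.78, 7.77, 7.64 and 7.75 in peripubertal mice. Early life mice lay above all peripubertal mice by 0.93 (SE 0.19, adjusted p = 0.061), and control mouse 3 again lay among the early life values. Homer1, a scaffold of metabotropic glutamate receptors, differed by 0.76 (SE 0.18, adjusted p = 0.085) on its probe of smallest p and by 0.03, 0.20 and 0.57 on 3 others. For early life against control, Agrn, which clusters muscle-type nicotinic receptors, differed by 0.99 (SE 0.20, adjusted p = 0.11, 2 early life values). Ly6h, a protein that binds nicotinic receptors, differed by -0.86 (SE 0.21, adjusted p = 0.13) on 1 probe and -0.45 on another. For peripubertal against control, Bche, an enzyme that splits acetylcholine, differed by -0.59 (SE 0.15, adjusted p = 0.57) and Dlg4, a scaffold of glutamate receptors, by -0.95 (SE 0.32, adjusted p = 0.81).

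Some markers of other cells moved with the same contrast. Over the 9 neuron markers with a value in every mouse (10 of 12 were kept), the mean level was 9.38, 9.23, 9.16 and 9.42 in early life mice, 8.94, 8.99, 9.15 and 9.08 in control mice and 8.80, 8.93, 8.85 and 8.98 in peripubertal mice. Early life mice lay above all peripubertal mice, and the lowest of them (9.156) was hardly above control mouse 3 (9.153). Single markers differed in direction: between the deficient groups Tubb3 differed by 1.09 (adjusted p = 0.11) and Nefh by -0.45 and -0.46 on its 2 probes. Gad1 was not kept, and Gad2, the other enzyme that makes GABA, also had lower early life values: 9.86 and 9.97 in the 2 early life mice with a value against 10.30 to 11.50 in control mice. The mean of 3 red cell markers was 11.64 to 13.36 in early life, 12.19 to 14.83 in control and 13.68 to 15.24 in peripubertal mice. Avp, a posterior lobe peptide, read 10.18 to 11.47, 9.84 to 10.70 and 9.75 to 10.50 in the same order. A mean of 3 myelin markers ran from 8.09 to 9.16, 8.16 to 8.49 and 7.98 to 8.21, so the groups overlapped for both. Oxt, the other posterior lobe peptide, read 14.03 and 14.22 in the early life mice with a value. These lay within the peripubertal range of 13.02 to 14.70. Levels of 6 markers of pituicytes and astroglia overlapped, at 8.10 to 8.63, 8.04 to 8.35 and 7.95 to 8.68 in the same order, as did the mean of 5 hormone genes (13.66 to 14.09, 13.62 to 14.15 and 13.78 to 14.34). The part of nerve tissue or blood in the receptor differences was not tested.

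**Figure D5:**
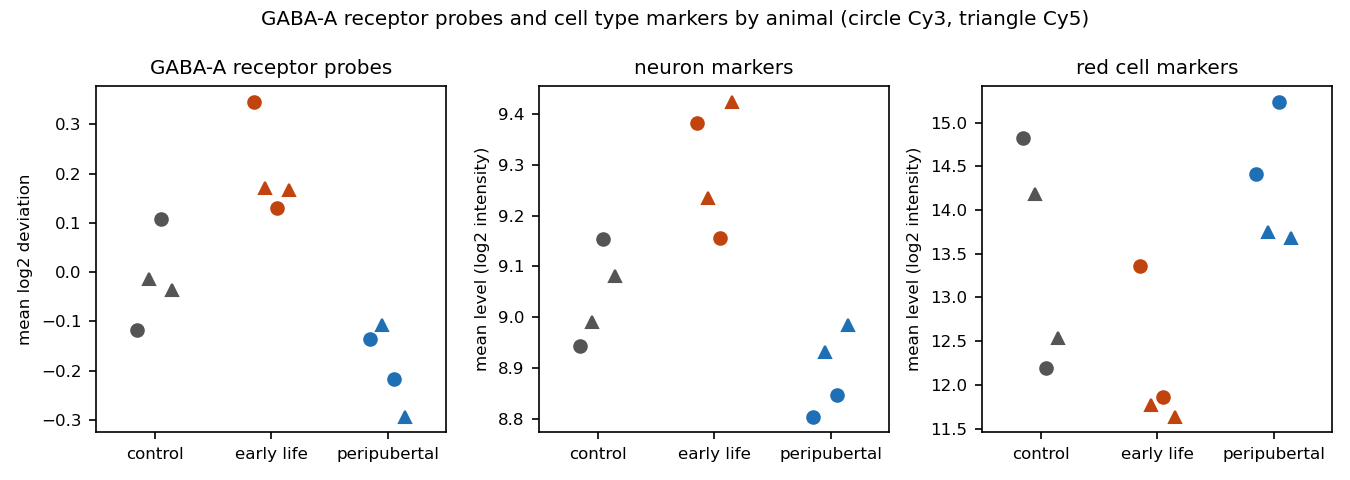
Mean log2 deviation of 15 GABA-A receptor probes, and mean log2 level of 9 neuron markers and 3 red cell markers, in each mouse by diet group (circles Cy3, triangles Cy5). All 4 early life mice lie above the other 8 for the GABA-A probes; for the neuron markers the lowest early life mouse (9.156) is level with control mouse 3 (9.153).

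Promoter sequences from RefSeq (assembly GRCm38.p6) were matched for 57 of the 78 genes, as 67 windows from 250 bases before to 50 after the start. The vitamin D receptor binds pairs of a motif that reads AGGTCA or GGTTCA, searched on both strands. AGGTCA was found in 14.9% of receptor gene windows and 16.3% of all 32851 windows, and GGTTCA in 11.9% and 10.4%. A pair of either motif in direct repeat spaced by 3 bases was in 0 of the 67 and in 5 of all windows (0.0152%). Such a pair is too rare for 67 windows to show a difference, so nothing is read from the 0. The median GC content was 59.5% in windows of kept genes and 53.3% in those of genes not kept.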

How the data were processed

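Scanner files of 6 two-colour Agilent arrays (12 channels, Feature Extraction 11.0.1.1) were deposited with mean and background intensities per spot, per the file headers. The authors' deposited value table holds median-centred log2 values and entered only as an alternative. There its columns of the deficient groups were grouped by the scanner channels they equal, not by their own labels. Mean intensities were background-corrected (normexp, offset 50), normalized within arrays by loess (control and outlier spots at weight 0) and between arrays by Aquantile, and split into channels. Outlier spots were dropped and replicate spots averaged. Of 39429 probes, the 24532 marked well above background in at least 4 of 12 channels were fitted in limma 3.58.1 (R 4.3.3) with group and dye as terms and the array as a random block (correlation between mice of 1 array 0.308). P-values were Benjamini-Hochberg adjusted over all probes of a comparison, with a threshold of 0.05. The offset compresses differences of dim probes. The number of arrays limits the precision: the median SE of a difference was 0.18. Where a group was above background nowhere, a bound was computed from each channel's lowest level above background. Not every probe needed that level, so the bound is approximate. Same-numbered mice of different groups did not deviate together (correlations from -0.18 to 0.13), so numbers were not used as pairs.

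Probes are named by rule: those past the threshold, the 5 smallest p-values per comparison, the 2 brightest of each family, all probes of such genes, those at exactly 3 or 4 channels, those above background in 3 or 4 channels of 1 group and 0 of another, and partner genes past the threshold or with the 2 smallest p-values. Other probes named were chosen after their values were seen. The members and lists were chosen with earlier results of these data known. The fit was tested on simulated data. Alternatives covered scaling, background correction, filters, outlier spots, spatial patches, array means, the value table and leaving out each mouse or array. Some member genes are counted but not reported by name here.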

Additional observations from a re-analysis of the deposited data

Results flagged for a closer look

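Of 79 group values examined (receptor probes the text names, in each diet group), 5 held a mouse far from the other 3 of its group. The limit was set on Dixon's ratio, which chance passes in about 1 of 20, so the count is near that of chance. Control mouse 3 read 8.14 for Chrnb3, where the other control mice read 7.35 to 7.46, and 12.03 for Chrna6, where the others read 7.83 to 8.17. Early life mouse 1 read 8.55 for Gabrg3 (probe A_55_P2228097), where the others read 7.89 to 7.92. Early life mouse 4 read 9.37 for Grin3a (probe A_52_P531731), where the others read 8.38 to 8.53, and its value on the second Grin3a probe, 9.03, was also the highest of its group. Early life mouse 1 read 7.21 for Htr2c, where the others read 7.11 to 7.12. That probe was well above background in 0 early life mice, and 7.21 is below the lowest level so marked in that channel (7.45).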

How the results depend on the processing

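The count of receptor probes past the threshold for early life against peripubertal, 1 in the report, was 0 with the scanner software's processed signals, quantile scaling, median centring, 75th percentile centring, no filter on dim probes, probes above background in all 12 channels only, outlier spots kept, array means, and the replicate number as a block (Chrnb3 adjusted p = 0.0608), and it was 2 in the authors' value table. For early life against control it was 1 (Chrnb3) without spots in patches over 0.3, and over 0.2, a limit chosen after seeing the data. Left-out mice or arrays gave 0 to 6, 0 to 1 and 0 to 9 receptor probes for early life against control, peripubertal against control and early life against peripubertal. Over all probes they gave 6 to 2737, 0 to 55 and 8 to 3253, and over partner probes 0 to 10, 0 to 1 and 0 to 15. The median over receptor probes for early life against peripubertal was 0.29 with processed signals, 0.057 without a filter, 0.31 with all 12 channels and 0.37 in the value table. Groups in the value table were those of the scanner files, and its own labels would reverse the sign. For early life against control it was -0.11 with 75th percentile centring, 0.035 without a filter and 0.25 with all 12 channels, and for peripubertal against control -0.25 with 75th percentile centring. Left-out mice or arrays gave medians of 0.040 to 0.14 for early life against control, -0.11 to -0.0095 for peripubertal against control and 0.091 to 0.25 between the deficient groups. Median centring moved the median of all probes to 0.13 and 0.12 in the comparisons with control. Chrnb3 for peripubertal against control reversed to 0.065 without control mouse 3 and to 0.046 without the array of control mice 3 and 4 (range with left-out mice or arrays -0.28 to 0.065), and Chrm4 to -0.056 without the array of peripubertal mice 3 and 4 (range -0.056 to 1.57). The number of receptor probes detected fell to 24 when all 12 channels were required and was 57 to 60 with a mouse or array left out. The cause of these shifts was not tested, except that fewer probes or samples entered some fits.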

Other observations

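Slc18a2 and Tph2, partner genes of serotonin signalling, were chosen after their values were seen. Slc18a2, the vesicular transporter that loads serotonin and other monoamines, read 9.08, 8.98, 8.68 and 8.64 in early life mice on probe A_55_P2143946. It read 11.27, 10.66, 8.61 and 10.24 in control mice and 10.64, 10.71, 10.41 and 11.004 in peripubertal mice. All peripubertal mice lay above all early life mice, and control mouse 3 lay with the latter. The difference between the deficient groups was -1.85 (SE 0.49, adjusted p = 0.11 in limma), and a second Slc18a2 probe gave -1.41 (SE 0.39, adjusted p = 0.11). Tph2, the serotonin-synthesis enzyme known from neurons, was well above background in 3 control, 4 peripubertal and 0 early life mice, so no difference from early life mice is given.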
